A study of Mus musculus with 12 samples.

Results

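Cxcl1, Cxcl2 and Cxcl3 encode chemokines that draw neutrophils into tissue, and Csf1, Csf2 and Csf3 encode the colony-stimulating factors that keep alive, expand and mature macrophages and granulocytes. These 6 genes, of 16920 in the tables, were followed across RNA sequencing libraries of mouse peritoneal macrophages. They were chosen by gene symbol, with no threshold on their values, but from results of these same libraries: their differences between the genotype labels under LPS, and between the LPS responses of the labels, were known beforehand. Both of those comparisons are therefore given for the 6 genes as descriptions, with an error and an interval and without a p-value. The filter on low counts kept 12064 genes, these 6 among them, but Csf2 passed it only through its KO LPS libraries and Csf3 only through its LPS libraries.

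The donor mice were wild type (WT) or carried the label of a whole-body Ythdf1 knockout (KO), both on a C57BL/6 background. Their macrophages were given PBS or lipopolysaccharide (LPS, an outer membrane component of Gram-negative bacteria sensed by Toll-like receptor 4) at 1 µg/mL for 6 h. WT PBS, WT LPS, KO PBS and KO LPS had 3 libraries each. Sources differ on how the cells were elicited, with starch broth in the series record and thioglycollate in the study's methods. The labels call the replicates independent samples, give no age or sex, and do not say whether each was a separate mouse (the methods call them biological replicates and give an age of 6 to 10 weeks for the study's mice in general), so p-values measure the spread between these samples.

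The CXC ligands carry a Glu-Leu-Arg motif ahead of their paired cysteines and act on CXCR2, the receptor that guides neutrophils toward a site of inflammation. Csf1 encodes M-CSF, the survival factor of macrophages that signals through the receptor Csf1r. Csf2 encodes GM-CSF, which acts on macrophages and granulocytes, and Csf3 encodes G-CSF, which drives neutrophil production in the bone marrow. In macrophages LPS switches on the CXC ligands, Csf2 and Csf3 largely through NF-κB, and AU-rich elements in the 3′ untranslated regions make most of these messages short-lived.

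Total counts per library were 21546274 to 22017005, so that 3 counts, used as the detection floor, were worth 0.105 to 0.187 CPM (edgeR's normalised read count). Summed CPM of 8 macrophage markers was 17170 to 19943 in the 12 libraries. Ythdf1 mRNA was not lower in the libraries labelled KO. It was at 43.5 ± 1.54 CPM in WT PBS and 57.2 ± 1.53 in KO PBS, and at 201 ± 9.37 in WT LPS and 198 ± 6.94 in KO LPS (mean ± SD, n = 3). With PBS it was called higher in KO (log2 0.40, adjusted p = 0.000133, edgeR). The paper reports CRISPR/Cas9 mice genotyped from tail, and YTHDF1 blots of liver and spleen in marrow-chimeric mice. These mRNA values do not measure the protein, and "KO" below names the label. In 2 groups a library stood apart. WT LPS replicate 1 differed from replicates 2 and 3 by a mean chi-square per gene of 33.6 and 26.2, against 3.09 between the latter pair. In KO PBS replicate 3 the summed CPM of 5 skeletal muscle markers was 0.319, against 15.2 and 19.6 in replicates 1 and 2. Replicates 2 and 3 of KO LPS also differed more from each other, at 17, than either did from replicate 1, at 7.44 and 6.11. Values of the 6 genes without WT LPS replicate 1 or KO PBS replicate 3 stand beside the results.

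The 3 CXC ligands lie together on chromosome 5 and share sequence. Cxcl2 and Cxcl3 have identical letters over bases 1 to 98 of their coding regions, shown here from the GENCODE transcripts of GRCm38 with the start codon in capitals, since reads from this stretch cannot be assigned to one gene.
Cxcl2 and Cxcl3, coding bases 1 to 98: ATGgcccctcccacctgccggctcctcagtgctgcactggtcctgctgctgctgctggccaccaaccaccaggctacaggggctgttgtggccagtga

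The longest coding run that Cxcl1 shares with Cxcl2 is 21 bases and with Cxcl3 22 bases, shorter than the 50-base reads. Of the 1060 windows of 50 bases in the Cxcl2 transcript, 61 (5.76%) also occur in Cxcl3, where they make up 6.31% of 967 windows. The deposited counts show the sharing: Cxcl2 and Cxcl3 carried decimals in all 12 libraries, while their sum was whole in 12 of 12 (within 0.005 of a count) and the other 4 members were whole throughout. The split between these 2 genes is therefore an estimate, and their sum is not. Csf2 shares 48 of its 751 windows with an opposite-strand gene, Gm12223, which held 0 to 1 counts per library; whether counting used strand is not given in the sources used here.

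The 250 bases before the RefSeq start of each CXC ligand (GRCm38.p6, plus strand) are shown because these genes rose together under LPS. Capitals mark matches, on either strand, to a strict NF-κB form, GGGNNTTTCC.
Cxcl1, chr5:90890995-90891244: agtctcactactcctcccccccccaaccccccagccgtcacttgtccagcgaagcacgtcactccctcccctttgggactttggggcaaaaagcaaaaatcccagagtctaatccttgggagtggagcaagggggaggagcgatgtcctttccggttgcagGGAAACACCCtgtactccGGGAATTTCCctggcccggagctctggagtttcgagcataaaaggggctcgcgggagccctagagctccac
Cxcl2, chr5:90903649-90903898: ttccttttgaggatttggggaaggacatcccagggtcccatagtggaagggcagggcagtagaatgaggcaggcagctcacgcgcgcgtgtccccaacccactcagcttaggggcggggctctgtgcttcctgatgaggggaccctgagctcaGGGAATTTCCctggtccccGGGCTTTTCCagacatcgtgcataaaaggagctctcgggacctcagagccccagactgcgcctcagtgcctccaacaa
Cxcl3, chr5:90785851-90786100: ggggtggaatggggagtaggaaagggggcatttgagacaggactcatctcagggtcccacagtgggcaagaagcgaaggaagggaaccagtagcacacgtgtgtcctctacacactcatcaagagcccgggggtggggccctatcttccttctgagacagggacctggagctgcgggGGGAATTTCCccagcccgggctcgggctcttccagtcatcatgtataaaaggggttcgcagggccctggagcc

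This form occurs in 1.41% of 32851 promoters of the same length. All 3 CXC ligands carry GGGAATTTCC, at bases -71 to -62 in Cxcl1, -97 to -88 in Cxcl2 and -73 to -64 in Cxcl3, counted back from the RefSeq start. Cxcl1 has a second match at -89 to -80 on the minus strand and Cxcl2 one at -78 to -69. Csf1 (chromosome 3, minus strand) has 1 match at -154 to -145, and Csf2 (chromosome 11, minus strand) has none. The Csf2 window belongs to a RefSeq start that lies 232 bases upstream of the GENCODE start, so it ends before the bases next to the latter. Csf2 alone of these 5 holds the C/EBP form TTGCNNAA (9.56% of promoters), and Cxcl3 alone holds TATAAA (12.4%). The looser NF-κB form GGGNNNNNCC is in 45.8% of promoters. The AP-1 form TGANTCA (6.75%) and the box GAGATTCC known from colony-stimulating factor genes (0.755%) were in none of the 5 windows. Both strands were searched and the NF-κB forms overlap each other. Csf3 had no entry. A match is a description of letters only.

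LPS raised Cxcl1, Cxcl2, Cxcl3 and Csf1 in cells of either label, the CXC ligands from low levels, and Csf2 and Csf3 were at or near the floor before LPS and detected in every LPS library. Per kilobase of transcript the 3 chemokines had the highest levels with LPS under both labels, and Csf1 had the smallest fold among the 4 genes with a measurable fold in both labels. These 4 were called higher in WT and in KO by edgeR's quasi-likelihood test at an adjusted p of 0.05. Csf2 and Csf3, admitted by the filter through the libraries where they are high, are left out of that count, and their LPS responses are given as descriptions without a p-value. Among all genes tested, 36.5% were higher and 40.2% lower in WT, and 38.8% higher and 41.1% lower in KO. In none of the 4 did LPS libraries overlap PBS libraries, which held upward for 37.1% of genes in WT and 39.7% in KO. Their median log2 fold change was 6.94 in WT and 10.28 in KO, against -0.05 and -0.04 over all genes. In bulk RNA, fewer cells making a transcript and less of it per cell cannot be told apart.

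**Figure D1:**
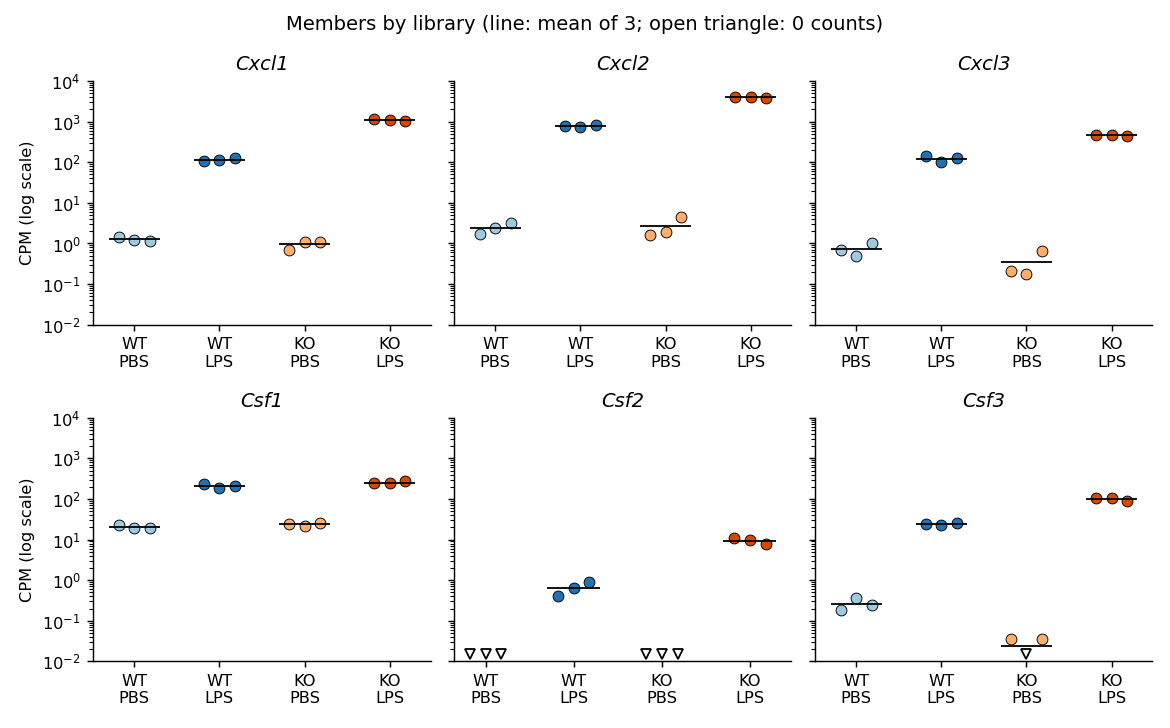
CPM of each gene in each of the 12 libraries, on a log axis, with the mean of 3 libraries as a line and open triangles for libraries with 0 counts, drawn at a fixed place near the axis. All LPS libraries lie above all PBS libraries of the same label, and in each of the 6 genes the KO LPS libraries lie above the WT LPS libraries.

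Cxcl1, which encodes the chemokine also called KC, was at 1.41, 1.25 and 1.18 CPM in the WT PBS libraries and at 108, 111 and 127 CPM with LPS. In KO it was at 0.7, 1.09 and 1.06 CPM with PBS and at 1144, 1084 and 1029 CPM with LPS. LPS libraries were far above PBS libraries under both labels. The mean rose 90.2-fold in WT (log2 fold change 6.50 ± 0.12 SE, adjusted p = 1.14e-17) and 1142-fold in KO (10.16 ± 0.12, adjusted p = 2.34e-19; edgeR).

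Cxcl2, which encodes MIP-2, was the most abundant of the 6 after LPS. Its WT libraries had 1.7, 2.36 and 3.11 CPM with PBS and 784, 734 and 846 with LPS. Its KO libraries had 1.61, 1.97 and 4.43 CPM with PBS and 4138, 4038 and 3889 with LPS. KO PBS replicate 3 was above the other 2 KO PBS libraries, and the LPS libraries were close to each other within each label. The mean rose 330-fold in WT (8.36 ± 0.27, adjusted p = 9.96e-11) and 1507-fold in KO (10.56 ± 0.29, adjusted p = 1.56e-11; edgeR). By mean CPM Cxcl2 moved from rank 9724 of 16920 genes in WT PBS to 248 in WT LPS, and from 9542 to 36 in KO.

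Cxcl3, a further ligand of CXCR2, had 0.687, 0.501 and 1.04 CPM in WT PBS and 144, 103 and 124 in WT LPS. In KO it had 0.21, 0.176 and 0.638 CPM with PBS, where replicates 1 and 2 rest on 5.83 and 5.47 estimated counts, and 479, 460 and 437 with LPS. Replicate 3 was again the highest of the KO PBS libraries. The mean rose 167-fold in WT (7.38 ± 0.21, adjusted p = 5.66e-13) and 1345-fold in KO (10.40 ± 0.24, adjusted p = 2.99e-14; edgeR).

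Csf1 was the colony-stimulating factor that the macrophages already expressed with PBS, at 22.3, 18.8 and 19 CPM in WT and 23.8, 22 and 25.7 in KO. With LPS it was at 229, 187 and 206 CPM in WT and 249, 241 and 270 in KO. The rise was close under both labels, 10.4-fold in WT (3.37 ± 0.09, adjusted p = 2.54e-15) and 10.6-fold in KO (3.41 ± 0.09, adjusted p = 1.65e-15; edgeR).

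Csf2 had 0 counts in all 6 PBS libraries. WT LPS libraries had 7, 11 and 16 counts (0.405, 0.626 and 0.903 CPM), and KO LPS libraries had 180, 157 and 123 (11, 9.61 and 7.65 CPM). GM-CSF transcript was thus detected in the LPS libraries alone, and sparsely in WT. Against the floor of 3 counts per library the mean was at least 5.99-fold higher with LPS in WT and at least 89.4-fold higher in KO. Floors and counting intervals cover counting error only, since reads carried no molecular identifiers.

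Csf3 had 5, 10 and 7 counts in WT PBS (0.181, 0.358 and 0.25 CPM) and 24.6, 22.3 and 25.8 CPM in WT LPS. KO PBS libraries held 1, 0 and 1 counts, and KO LPS libraries 108, 104 and 89.5 CPM. G-CSF transcript was near the floor before LPS under both labels and well above it afterwards. The mean rose 92.3-fold in WT (6.53 ± 0.17 on the log2 scale), an error that may be too small with 5 to 10 counts per PBS library. In KO, where 2 counts in all stand behind the PBS mean, the ratio was 4283 with an exact 95% counting interval of 1185 to 35380.

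The libraries that stood apart changed no call of those 4 genes here. Without WT LPS replicate 1 the WT response was 6.54 for Cxcl1, 8.37 for Cxcl2, 7.25 for Cxcl3, 3.29 for Csf1 and 6.52 for Csf3 on the log2 scale. Without KO PBS replicate 3 the KO response was 10.24 for Cxcl1, 11.13 for Cxcl2, 11.21 for Cxcl3 and 3.46 for Csf1. The KO responses of Cxcl2 and Cxcl3 were wider without the library in which both were highest before LPS.

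**Figure D2:**
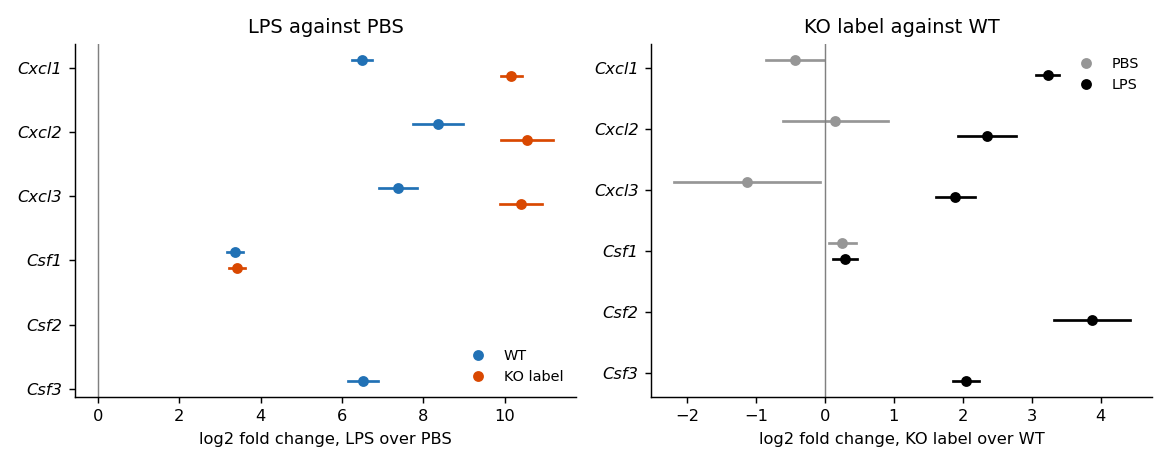
Fitted log2 fold changes with 95% intervals, on the left for LPS over PBS in WT and KO, and on the right for KO over WT with PBS and with LPS. The intervals on the left may be too narrow, as the processing section describes. Csf2 has no point where a PBS group was at 0, and Csf3 has none where KO PBS (2 counts in all) enters. Csf1 points of both labels coincide on the left, and on the right the LPS values of the other 5 genes lie between 1.89 and 3.87.

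With PBS only Csf3 was called between the labels, lower in KO. Csf3 had 22 counts in all over WT PBS and 2 over KO PBS, a level 11.2-fold lower (exact 95% counting interval 2.76 to 98; adjusted p = 0.00294, edgeR), and the groups did not overlap. Csf3 had no value in a fit to the PBS libraries alone. It was the only member called, lower, where 13.0% of all genes were called lower and 12.3% higher. Csf2 was at 0 under both labels. Cxcl1 was also lower in every KO PBS library than in every WT PBS library, by 0.43 ± 0.20 on the log2 scale, but did not pass the test (adjusted p = 0.123). Such freedom from overlap, downward, was seen in 2 members and in 24.6% of all genes. The median of the 5 members with a fitted difference was -0.43, against 0.000364 over all genes.

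The KO over WT difference with PBS was 0.16 ± 0.34 for Cxcl2 (adjusted p = 0.787), -1.13 ± 0.49 for Cxcl3 (adjusted p = 0.115) and 0.25 ± 0.09 for Csf1 (adjusted p = 0.0572; log2, edgeR), and in each the groups overlapped. Mean CPM of Cxcl3 was 2.17-fold lower in KO. Whether Cxcl3 and Csf1 passed depended on the libraries, the tool and, for Csf1, the scaling: over the settings that gave a value, Csf1 passed in 10 of 21 (adjusted p 0.00649 to 0.193) and Cxcl3 in 3 of 19 (0.00913 to 0.336). For Csf1 the adjusted p was 0.0484 with RLE scaling, 0.0167 with library totals and 0.0267 with the replicate block (edgeR), and 0.0435 with DESeq2. Without KO PBS replicate 3 the Cxcl3 difference was -1.92 with an adjusted p of 0.0152. Without that library Cxcl1 was at -0.50 (adjusted p = 0.146) and Csf3 was still called (adjusted p = 0.00913). Without WT PBS replicate 1 the Csf1 difference was 0.37 with an adjusted p of 0.0181. The part of the muscle transcripts that set KO PBS replicate 3 apart was not tested.

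With LPS every member was higher in KO than in WT, with no overlap of libraries, from 1.22-fold for Csf1 to 14.6-fold for Csf2. These values chose the members and are a description. Over all genes 22.1% were called higher and 19.3% lower in this comparison, all 6 members were among those called higher, and 24.2% of genes were higher without overlap; nothing is read from these counts, since the comparison chose the members. The median of the members was 2.20 on the log2 scale, against 0.000586 over all genes.

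Among the CXC ligands the ratio of mean CPM was 9.4 for Cxcl1, 5.1 for Cxcl2 and 3.71 for Cxcl3. The log2 differences were 3.23 ± 0.08 (95% interval 3.06 to 3.40), 2.35 ± 0.19 (1.93 to 2.77) and 1.89 ± 0.13 (1.61 to 2.18). The lowest KO LPS library exceeded the highest WT LPS library 8.08-fold for Cxcl1, 4.6-fold for Cxcl2 and 3.03-fold for Cxcl3. Without WT LPS replicate 1 the ratios were 9.09, 5.09 and 4.05. Without KO LPS replicate 2 the log2 differences were 3.23, 2.35 and 1.89, and without replicate 3 they were 3.27, 2.38 and 1.93.

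Among the colony-stimulating factors Csf2 had the widest ratio, 14.6, with a log2 difference of 3.87 ± 0.25 (95% interval 3.32 to 4.42). It rests on 34 counts over the WT LPS libraries and 460 over KO LPS, and fell to 12.3 without WT LPS replicate 1. Csf3 was 4.14-fold higher (2.05 ± 0.09, 1.87 to 2.23) and 4.17-fold without that library. Csf1 was 1.22-fold higher (0.29 ± 0.08, 0.12 to 0.46) and 1.29-fold without it. For Csf1 the lowest KO LPS library exceeded the highest WT LPS library 1.05-fold.

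The difference between the LPS responses of the labels (interaction) was 3.66 ± 0.22 for Cxcl1 (95% interval 3.21 to 4.12), 2.20 ± 0.39 for Cxcl2 (1.33 to 3.07) and 3.02 ± 0.50 for Cxcl3 (1.93 to 4.10) on the log2 scale. For Csf1 it was 0.04 ± 0.12 (-0.22 to 0.30). The size could not be measured for Csf2 or Csf3, whose KO PBS levels were at or under the floor. Over all genes 9.78% were called more positive and 8.26% more negative, with a median of 0.01, and 4 members (the CXC ligands, and Csf3 although its size could not be measured) were among the former, which is again a description. The low KO PBS values enter here: without KO PBS replicate 3 the interaction was 3.72 for Cxcl1, 2.75 for Cxcl2, 3.81 for Cxcl3 and 0.07 for Csf1. Without WT LPS replicate 1 it was 3.62, 2.19, 3.14 and 0.12.

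Marker genes of macrophages and of other cell types were compared between the labels, where 22.1% of all genes were called higher and 19.3% lower with LPS, and 12.3% and 13.0% with PBS. Of the 8 macrophage markers, 3 were lower in KO LPS than in WT LPS (Mertk by 1.24, Csf1r by 0.53 and Cd68 by 0.21 on the log2 scale) and 1 was higher (Cd14, 0.68), and with PBS Cd14 was higher and Adgre1 lower, so that 2 of 8 were called there. Fibroblast markers were lower in KO in all 5 tested of 7 under both treatments, at a summed 119 to 132 CPM in WT LPS and 57.0 to 69.5 in KO LPS, with Lum and Dpt at or under the floor in both. Skeletal muscle markers summed to 28.7 to 33.6 CPM in WT LPS and 0.428 to 0.684 in KO LPS, where Myh4, Ckm and Tnnt3 were at or under the floor. All 5 of them were called lower in KO with LPS, Myh4 and Tnnt3 without a fold since both had 0 CPM in KO LPS. With PBS 0 were called. Of the 8 neutrophil markers 6 were in the table and 2 were tested, S100a8 and Mmp8, and both were higher in KO LPS; the list summed to 86.4 to 88.8 CPM in WT LPS and 112 to 121 in KO LPS, with S100a9 and Retnlg at or under the floor. With PBS the neutrophil list summed to 103 to 107 CPM in WT and 151 to 154 in KO, where Mmp8 was higher and S100a8 was not called. Mmp8 alone made up most of these sums, at 78.2 CPM in WT LPS, 104 in KO LPS, 100 in WT PBS and 147 in KO PBS. The T cell receptor genes Cd3d, Cd3e and Cd3g and the mast cell proteases Cpa3, Mcpt4, Cma1 and Tpsb2 were at or under the floor in every group, whereas Kit was at 1.1 CPM in WT LPS and 3.22 in KO LPS. With PBS Kit went the other way, at 0.718 CPM in WT and 0.27 in KO, and it was called in both comparisons. T cell markers summed to 10.6 to 14.2 CPM in WT LPS and 5.09 to 5.88 in KO LPS, and mesothelial markers to 11.8 to 15 and 9.02 to 13.7, Muc16 being at or under the floor in both. Lck alone made up most of the T cell sums, at 10.3 CPM in WT LPS and 3.96 in KO LPS. With PBS it was at 0.0716 CPM in WT and 0.0821 in KO. With LPS 1 of 4 tested T cell markers (Lck) and 1 of 8 tested mesothelial markers were lower, and with PBS 0 and 2. The part of the fibroblast, muscle, neutrophil and other transcripts in the differences above was not tested.

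Together the 6 genes took 0.00313% ± 0.000176 of all counts in WT PBS, 0.101% ± 0.00694 in WT LPS, 0.00365% ± 0.000453 in KO PBS and 0.446% ± 0.0191 in KO LPS (mean ± SD, n = 3). The make-up of the chemokine pool also differed. Per kilobase of transcript, Cxcl2 held 74.5% ± 0.907 of the summed level of the 3 CXC ligands in WT LPS and 69.5% ± 0.404 in KO LPS. Cxcl1 held 12.7% ± 0.814 and 21.8% ± 0.361, and Cxcl3 held 12.8% ± 1.78 and 8.65% ± 0.0802. None of these shares overlapped between the labels, and they follow from the same values that chose the genes. Without WT LPS replicate 1 the WT LPS means were 75.1%, 13.2% and 11.8% for Cxcl2, Cxcl1 and Cxcl3. Before LPS the shares spread widely, with Cxcl1 at 24.5% to 40.1% in WT PBS and 19.4% to 37% in KO PBS.

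**Figure D3:**
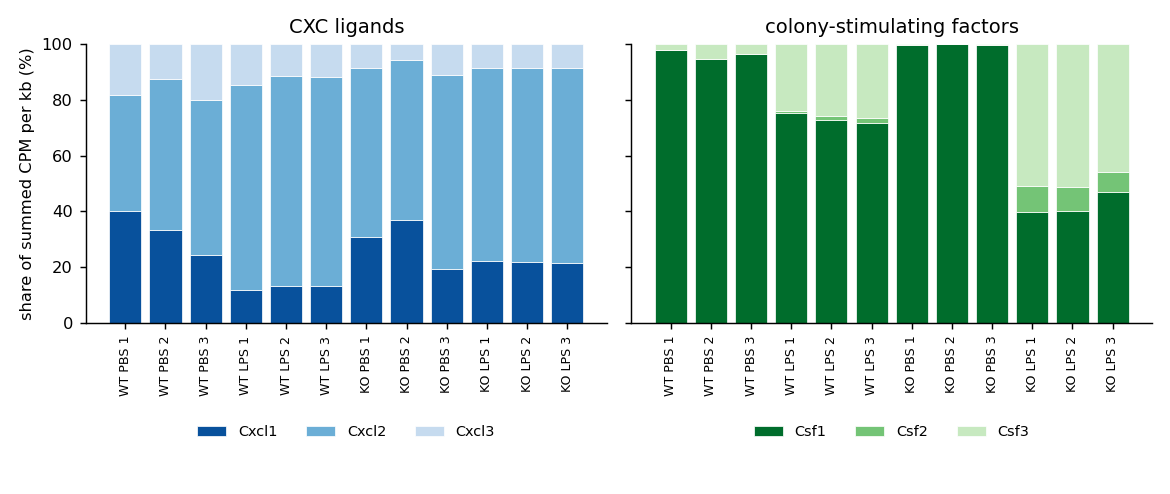
Share of each gene in the summed CPM per kilobase of the 3 CXC ligands (left) and the 3 colony-stimulating factors (right), in each of the 12 libraries. Cxcl2 has the largest share of the chemokines in every library, and Csf1 falls from at least 94.7% of the colony-stimulating factors with PBS to a mean of 42.4% in KO LPS. Csf1 is scaled by its 4176-base transcript, and a shorter one would give it larger shares.

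Of the colony-stimulating factor level per kilobase, Csf1 held 96.2% ± 1.5 in WT PBS and 73.3% ± 1.79 in WT LPS, with Csf3 at 25.5% ± 1.33 and Csf2 at 1.21% ± 0.476 in the latter. In KO LPS Csf1 held 42.4% ± 4.02, Csf3 49.4% ± 2.98 and Csf2 8.18% ± 1.15. Without WT LPS replicate 1 the WT LPS means were 72.3% for Csf1, 26.2% for Csf3 and 1.46% for Csf2. In KO LPS the order of levels per kilobase was Cxcl2 at 3627, Cxcl1 at 1139, Cxcl3 at 452, Csf3 at 71.1, Csf1 at 60.7 and Csf2 at 11.8 CPM per kb. Csf3 (63.4 to 76.3) and Csf1 (57.7 to 64.8) overlapped there. Levels and shares of Csf1 use its 4176-base transcript, the longest of its RefSeq-matched ones. With those of 3058 or 2097 bases both would be higher. The order of Csf1 and Csf3 in KO LPS is therefore not settled. In WT LPS the order was Cxcl2 at 711, Cxcl3 at 122, Cxcl1 at 121, Csf1 at 49.6, Csf3 at 17.2 and Csf2 at 0.806, and Cxcl3 and Cxcl1 overlapped. With PBS Csf1 led, at 4.79 CPM per kb in WT and 5.71 in KO.

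Since the split between Cxcl2 and Cxcl3 was estimated, Cxcl3's part of their summed counts is given by itself. It was 17.1% to 28.2% in WT PBS, 12.3% to 15.5% in WT LPS, 8.97% to 12.6% in KO PBS and 10.1% to 10.4% in KO LPS. WT libraries thus gave Cxcl3 a larger part than KO libraries after the same treatment.

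Other genes of these pathways, from lists written with earlier results of these data known, did not move as one. Calls given for these genes and for the members' neighbours that changed without WT LPS replicate 1 or without KO PBS replicate 3 are named with their values. Of the 4 other CXC ligands listed, Cxcl5 and Pf4 were tested, while Ppbp and Cxcl15 were below the filter. Cxcl5, which encodes another CXCR2 ligand (LIX), rose with LPS from 0.383 ± 0.126 to 1.73 ± 0.335 CPM in WT (adjusted p = 2.94e-05) and from 0.0822 ± 0.0735 to 1.13 ± 0.292 in KO (adjusted p = 4.43e-06). With LPS its KO over WT difference was -0.62 ± 0.32 (adjusted p = 0.141; edgeR). Pf4, a platelet chemokine gene beside Cxcl3, was lower in KO with LPS, by 0.50 ± 0.10 on the log2 scale (adjusted p = 0.00112). The list's median there was -0.56. Both were also lower in KO with PBS, Cxcl5 by 2.22 ± 0.61 and Pf4 by 0.44 ± 0.10 on the log2 scale (adjusted p = 0.0138 and 0.00533; edgeR), with a median of -1.33. The KO PBS mean of Cxcl5 was under the floor, so the size of its difference is uncertain. Without KO PBS replicate 3 it was -2.84.

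The receptor genes of the CXC ligands were low in these macrophages. Cxcr2 rose with LPS from 1.4 ± 0.0887 to 4.12 ± 0.267 CPM in WT (adjusted p = 2.94e-08) and from 2.25 ± 0.0473 to 5.36 ± 0.537 in KO (adjusted p = 1.02e-07), and was higher in KO with LPS by 0.38 ± 0.13 (adjusted p = 0.0231; edgeR), a call that was lost without WT LPS replicate 1 (0.33, adjusted p = 0.086). Cxcr1 fell with LPS from 1.82 ± 0.0638 to 0.381 ± 0.135 CPM in WT and from 3.19 ± 0.28 to 0.349 ± 0.0966 in KO (adjusted p = 6.01e-07 and 3.21e-09). With PBS both were higher in KO, Cxcr1 by 0.81 ± 0.16 and Cxcr2 by 0.69 ± 0.15 (adjusted p = 0.00142 and 0.00273; edgeR), as was the neutrophil marker Mmp8 (0.56 ± 0.05); its part in these values was not tested. Ackr1, a decoy receptor gene, was below the filter.

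Of the 5 colony-stimulating factor receptor genes, 4 rose and 1 fell with LPS under each label, where 36.5% and 38.8% of all genes rose and 40.2% and 41.1% fell. The gene that fell was Csf1r, the M-CSF receptor, from 617 ± 21.3 to 425 ± 85.4 CPM in WT and from 639 ± 33 to 295 ± 22.8 in KO (adjusted p = 0.000278 and 1.26e-07). Csf3r, the G-CSF receptor, rose from 98.2 ± 2.86 to 505 ± 23.2 CPM in WT and from 163 ± 2.97 to 655 ± 24 in KO (adjusted p = 4.69e-16 and 2.52e-15). Csf2rb, the signalling chain of the GM-CSF receptor, rose from 389 ± 7.18 to 854 ± 139 and from 286 ± 18.5 to 1046 ± 110 CPM (adjusted p = 3.05e-08 and 5.42e-11), and its close relative Csf2rb2 rose as well; both carried decimals in all 12 libraries, so their split is uncertain. The rise of the ligand-binding chain gene Csf2ra, at log2 0.61 in WT and 0.69 in KO, became -0.06 and -0.11 when libraries were scaled by their totals alone.

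Between the labels with LPS, 2 of the 5 receptor genes were higher in KO (Csf3r by 0.38 ± 0.05 and Csf2rb by 0.29 ± 0.10; adjusted p = 4.69e-05 and 0.0255), 1 was lower (Csf1r by 0.53 ± 0.11; adjusted p = 0.00115) and 2 were not called (Csf2ra 0.06 ± 0.05 and Csf2rb2 0.13 ± 0.09), against 22.1% of all genes higher and 19.3% lower. Csf2rb2 was called without WT LPS replicate 1, at 0.25 (adjusted p = 0.0141). The list's median was 0.13. With PBS Csf3r was higher in KO by 0.73 ± 0.05 (adjusted p = 1.22e-07, edgeR). Csf2rb and Csf2rb2 were lower there by 0.45 ± 0.10 and 0.59 ± 0.09 (adjusted p = 0.00382 and 0.000252, edgeR), and Csf1r and Csf2ra were not called. Over all genes 12.3% were called higher and 13.0% lower with PBS. The responses to LPS also differed: the interaction was -0.58 ± 0.15 for Csf1r (adjusted p = 0.0159), 0.74 ± 0.14 for Csf2rb (adjusted p = 0.00184), 0.72 ± 0.13 for Csf2rb2 (adjusted p = 0.00127) and -0.36 ± 0.08 for Csf3r (adjusted p = 0.00421; edgeR). For Csf2ra it was 0.09 ± 0.08 and not called (adjusted p = 0.483, edgeR). Over all genes 9.78% were called more positive and 8.26% more negative.

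Of the ligands and receptors that share a colony-stimulating factor receptor or chain, Il34 and Il5 were below the filter and Il3 is not in the tables. Il3ra was lower in KO with LPS, at 107 ± 3.74 against 147 ± 8.73 CPM (adjusted p = 1.67e-05), and Il5ra was at 1.05 ± 0.116 against 0.78 ± 0.175 (adjusted p = 0.258). With PBS Il3ra was lower in KO as well, by 0.39 ± 0.06 on the log2 scale (adjusted p = 0.000192, edgeR). Cish and Pim1, genes that cytokine receptors induce through STAT5, both rose with LPS. Cish went from 0.276 ± 0.164 to 24.9 ± 1.69 CPM in WT and from 0.211 ± 0.107 to 71.1 ± 6.27 in KO, and was higher in KO with LPS by 1.51 ± 0.10 (adjusted p = 1.69e-08). Pim1 was higher there by 0.38 ± 0.06 (adjusted p = 7.58e-05; edgeR).

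The 12 genes known to control such transcripts comprised transcription factors, mRNA decay factors and stabilising proteins, and all 12 were tested. With LPS 9 rose and 3 fell under each label, and in KO over WT with LPS 9 were higher, none was lower and 3 were not called, with a median of 0.38. The shares of all genes were 36.5% and 38.8% higher with LPS in WT and KO, 40.2% and 41.1% lower, and 22.1% higher and 19.3% lower between the labels. With PBS 4 of the 12 were higher in KO, 1 was lower and 7 were not called, where 12.3% of all genes were higher and 13.0% lower. The widest differences were those of Zfp36l1, an AU-rich element decay factor, at 35.6 ± 1.61 CPM in KO LPS against 21.9 ± 1.22 in WT LPS (0.70 ± 0.06, adjusted p = 5.64e-07), and of Cebpb, a transcription factor of acute inflammation, at 1114 ± 13.1 against 761 ± 70.4 (0.55 ± 0.09, adjusted p = 9.48e-05; edgeR). The narrowest were Traf3ip2 (-0.05 ± 0.09) and Khsrp (-0.10 ± 0.10), which were not called. With PBS Zfp36l1 was also higher in KO, by 0.25 ± 0.06 (adjusted p = 0.00371, edgeR), and the lower gene was Traf3ip2. Without KO PBS replicate 3 the latter was not called (-0.38, adjusted p = 0.0509, edgeR). Without that library the fall of Khsrp with LPS in WT (-0.24) was no longer called (-0.21, adjusted p = 0.0727). Nfkbiz, an NF-κB cofactor gene, was higher by 0.44 ± 0.06 and Zc3h12a, the gene of the RNase Regnase-1, by 0.48 ± 0.08. Both were picked after their values were seen and are given without a p-value.

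**Figure D4:**
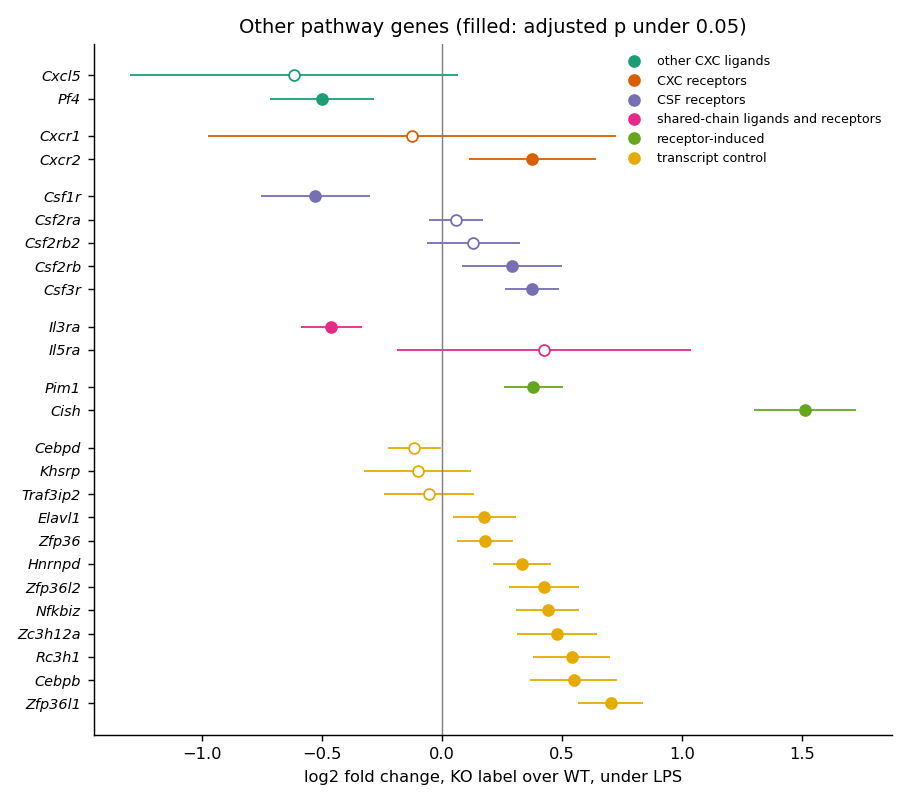
Log2 fold change of KO over WT with LPS, with 95% intervals, for the other tested ligands, receptors, receptor-induced genes and transcript control genes. Filled points passed an adjusted p of 0.05, and Cish, at 1.51, lies farthest to the right.

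The 3′ untranslated regions of the 6 genes differ in the AU-rich elements that were counted in their GENCODE transcripts, for Csf1 the longest of its RefSeq-matched ones (4176 bases). The pentamer ATTTA occurs 7 times in Cxcl1, 11 in Cxcl2, 5 in Cxcl3, 4 in Csf1, 9 in Csf2 and 6 in Csf3. The nonamer TTATTTATT occurs 2, 4 and 1 times in Cxcl1, Cxcl2 and Cxcl3, 4 times in Csf2, and not in Csf1 or Csf3. Of 20496 genes, 0.171% have 4 or more copies, 1.35% have 2 or more and 6.32% at least 1. Csf1, with a 3′ region of 2111 bases, has the lowest density of ATTTA of the 6, one that 33.2% of genes reach, against 0.102% for Csf2 and 0.454% for Cxcl2. GGACT, a form of the motif in which adenosine is methylated to m6A, occurs in the transcripts of Csf1 (6), Cxcl1 (2), Csf2 (1) and Csf3 (1) and not in those of Cxcl2 and Cxcl3. Of all genes, 19.3% have as many copies as Csf1, 69.6% as many as Cxcl1 and 87.2% as many as Csf2 and Csf3. Whether any of these sites was bound or methylated was not measured.

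The nearest tested genes on either side of the members were read in the same fit. Csf3 (chr11:98700183-98703631) lies 4205 bases from Psmd3 and 966 bases from Med24, which with LPS differed between the labels by 0.07 ± 0.08 and 0.04 ± 0.07 on the log2 scale (adjusted p = 0.485 and 0.682; edgeR). Psmd3 was called without WT LPS replicate 1, at 0.17 (adjusted p = 0.0491). Cxcl2 (chr5:90903899-90905938) has Cxcl1 (chr5:90891245-90893121) on one side, 10778 bases away, and Mthfd2l, a mitochondrial folate enzyme gene, on the other, 24935 bases away. Mthfd2l was higher in KO LPS by 0.77 ± 0.17 (5.13 against 3 CPM, adjusted p = 0.00171). Cxcl3 (chr5:90786101-90788093) lies 103152 bases from Cxcl1 and 12718 from Pf4. Around Csf1 (chr3:107741048-107760469), Ahcyl1 and Gstm5 were lower in KO LPS by 0.44 ± 0.06 and 0.70 ± 0.23 (adjusted p = 3.21e-05 and 0.0222). Around Csf2 (chr11:54247270-54249899), Fnip1 was higher by 0.63 ± 0.09 (adjusted p = 4.24e-05) and P4ha2 was at 1.52 against 0.968 CPM (adjusted p = 0.125). Positions are those of the RefSeq gene table for GRCm38.p6.

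The genes whose levels followed each member most closely were found by Pearson's r of log2(CPM + 1) over the 12 libraries, among 9313 genes. They were Flrt3, Ahr and Mycl for Cxcl1 (r = 0.998 to 0.999), Ier3, Stim2 and Il12a for Cxcl2 (0.999), Ttc39c, Il1a and Icosl for Cxcl3 (0.9985 to 0.9991), and Tnfrsf1b, Zc3h12a and Ptprj for Csf1 (0.999). For Csf3 they were Fcgr2b, Rabgef1 and Inhba (0.998), and for Csf2 Cdk11b, Errfi1 and Eif5 (0.983 to 0.987). Such values are common here, since the libraries fall into PBS and LPS sets: 2531 genes had an r over 0.9 with Cxcl1, and 361 with Csf2. Among the members the highest r was 0.998, for Cxcl1 with Csf3 and for Cxcl2 with Cxcl3, and the lowest 0.767, for Csf1 with Csf2. All points share library, depth and treatment, so the r values are a description. Il1a, the gene of interleukin-1α, had 24.3, 2297, 17.6 and 8419 CPM in WT PBS, WT LPS, KO PBS and KO LPS.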

How the data were processed

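RNA was sequenced as single-end 50-base reads on a BGISEQ-500. The authors deposited expected counts (estimated counts per gene), neither scaled between libraries nor pooled, made with Bowtie2 and RSEM 1.3.1 on GRCm38.p6 per the labels' processing notes. By contrast, the study's methods name STAR and HTSeq, and 24.6% to 26.9% of the values in a library carry decimals. Counts were rounded and analysed in R 4.3.3 with edgeR 4.0.16: filterByExpr by group, TMM scaling, and 1 robust quasi-likelihood fit with a mean per group to all 12 libraries. P-values are two-sided with Benjamini-Hochberg adjustment over 12064 genes and a threshold of 0.05. Each SE is the size of the fitted coefficient over the square root of its test's F value. The 95% intervals follow from that SE. For Cxcl3 it was 0.214 in WT and 0.235 in KO for the LPS response, but 0.501 for their difference. Errors of the large LPS responses may therefore be too small. Folds of means are ratios of mean CPM, and tables were handled in Python 3.11.15. Per-kilobase values use the longest RefSeq-matched protein-coding GENCODE transcript of each gene. The method was tested on simulated data.

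The members and gene lists were chosen with earlier results of these data known. Named genes are the members, the listed pathway genes (of the longest list the 2 widest and 2 narrowest changes, with Nfkbiz and Zc3h12a picked after their values were seen), the 3 genes most like each member among those with at least 5 mean CPM in 1 group, and the nearest tested neighbours. Gene numbers matched the RefSeq table in 16803 of 16920 cases (99.3%). Alternatives were RLE, upper-quartile and total-count scaling, other low-count filters, DESeq2 1.42.0, fits to only the libraries compared, a replicate block, leaving out each library, and, chosen after seeing the data, Cxcl2 and Cxcl3 summed and the pathway genes without WT LPS replicate 1 or KO PBS replicate 3. Protein sequences and a Csf3 promoter were not used here. The result of a further marker list is not reported here.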

Additional observations from a re-analysis of the deposited data

Results flagged for a closer look

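The response to LPS differed between the genotype labels for the 3 CXC ligands, by an interaction term of 3.66 for Cxcl1, 2.20 for Cxcl2 and 3.02 for Cxcl3 on the log2 scale, each higher in KO. These differences were among those known when the genes were chosen, so they are given as values without a p.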

How the results depend on the processing

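No called difference changed sign among 490 values of the members under alternatives; Cxcl2 under PBS, called under none of them, ranged over -0.40 to 0.44. With LPS against PBS and with KO against WT under LPS, every member kept its direction under each alternative that gave it a value, although scaling by library totals moved the median of all genes by -0.66 (WT) and -0.80 (KO) under LPS and upper-quartile scaling by -0.31 and -0.36. Among the pathway genes tested, the LPS rises of Pf4 (log2 0.43 in WT, 0.36 in KO) and Il3ra (0.66, 0.58) turned to -0.24, -0.44 and -0.01, -0.22 with library totals. A minimum of 10 counts in every library removed Cxcl3, Csf2 and Csf3, which left 3 members called in LPS against PBS under each label and 0 in KO against WT under PBS. Csf2 could not be fitted in WT libraries alone, nor Csf3 in PBS libraries alone.

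Under PBS the count of members called was 2 with RLE scaling, library totals, no filter, the replicate block and the libraries compared alone, 3 with DESeq2, and 1 to 2 when a library was left out. Csf1 passed the threshold at 0.27 (RLE, and DESeq2), 0.30 (totals), 0.26 (no filter) and 0.25 (libraries compared alone), and ranged over 0.21 to 0.37 with a library left out; besides WT PBS replicate 1, it passed without WT LPS replicate 1 (0.25), WT LPS replicate 2 (0.25) and KO PBS replicate 2 (0.33). Cxcl3 passed at -1.13 (libraries compared alone) and -1.11 (DESeq2), and ranged over -1.92 to -0.79 with a library left out. All genes called there numbered 3058, but 4627 with only the libraries compared and 1992 without KO PBS replicate 1. The cause of these moves was not tested.

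Under LPS the Csf2 difference ranged over 3.63 to 4.19 with a library left out. The interaction ranged over 3.45 to 3.74 for Cxcl1, 1.90 to 2.75 for Cxcl2 and 2.68 to 3.81 for Cxcl3, and for Csf1 it was -0.10 with library totals. Deviations of same-numbered replicates had an r of -0.26 to 0.25 over 18 pairs (median 0.03), with 6 over 0.1, against -0.36 to 0.39 over 36 pairs of different numbers (median -0.01), also with 6 over 0.1. All 6 pairs of replicate 2 were positive (0.058 to 0.25). Since not every pair was over 0.1, the numbers were not taken to pair the samples. Most of these pairs join WT with KO samples. Between PBS and LPS within a label, same-numbered pairs had an r of 0.209, 0.222 and -0.0371 in WT and 0.0395, 0.137 and 0.108 in KO. Pairing within a label is therefore not settled, and the replicate block ties numbers across the labels. With the replicate block Csf1 under PBS was 0.25 (adjusted p = 0.0267, edgeR). Depth limits Csf2 in WT and Csf3 in KO PBS.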
